A study of Mus musculus with 6 samples.

Results

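The genes described here encode the proteins of the cytosolic ribosome. They were chosen by symbol alone, with no expression value: every protein-coding row of the authors' deposited table whose symbol is Rpl, Rps or Rplp followed by a number and at most a short suffix, together with Rpsa, while the kinases whose symbols start with Rps6k were left out. This gave 82 of the 23170 rows of the table, of which 15397 are protein-coding. The large subunit has 50 of these genes and the small subunit 32.

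A ribosome reads messenger RNA on its small subunit and joins amino acids on its large subunit, and its proteins are needed in equal numbers, 1 of nearly every kind in each particle. Their messenger RNAs start with a C followed by a run of pyrimidines, the 5′ terminal oligopyrimidine (TOP) motif, through which the mTOR pathway and the protein Larp1 set how much of them is translated. Cells that grow, divide or secrete much protein, such as the osteoblasts that lay down bone matrix and the blood precursors of the marrow, hold many ribosomes. The mouse genome also carries many processed pseudogenes of these genes, copies of the spliced RNA that can be nearly identical to it.

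Subchondral bone was taken from the mandibular condyle, the head of the jaw bone within the joint, and its RNA was sequenced. It came from wild type mice that had surgery on 1 temporomandibular joint. In 3 libraries the surgery was a sham operation and in 3 a partial discectomy, which takes out part of the disc of the joint and is used to bring on joint degeneration. The age label of all 6 libraries reads P6w+PO2w, which gives 6 and 2 weeks with prefixes it does not spell out. Whether each library is a mouse of its own is not stated, so the spread within a group may be partly technical. Sham descriptions carry the letters Rctrl and partial discectomy ones LPD. Nothing explains these letters, and what they stand for cannot be told apart from the surgery. Before them stand the numbers 1, 5 and 6 in sham and 2, 4 and 6 in partial discectomy. If a number marks an animal, which is not stated, 1 animal gave a library to each group.

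The authors' deposited table gives, for each gene, a mean normalized signal in each group, in a unit that is not named and for which it is not said whether it is per length. Deposited means are therefore no measure of which gene has more transcripts, and where rows are picked, split or ranked by their mean, this is by the deposited signal only. Values by library were not analysed here, except that the table gives the highest value over the 6 libraries, and the sequencing depth is unknown. The smallest group mean is 1, called the floor, which was read here as an offset. Group means below are given above the floor. A ratio is the deposited partial discectomy mean over the deposited sham mean, floors included, so it understates the change of genes near the floor. Defining markers of bone were present in both groups, the authors' deposited table giving Sp7, the lowest of 8, means of 143 and 134 above the floor.

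The start of the gene is where the TOP motif lies, and RefSeq promoter sequences of build GRCm38.p6, the coordinates of mm10, were found for 62 of the 82 genes. The windows below show how such starts look in genes that the values return to. Each runs 5′ to 3′ on the gene's strand, with 20 bases before the annotated start and 20 from the start on, and capitals mark the longest unbroken run of C and T near the start. The first 7 have a long run of this kind, and in the last 2, Rplp0 and Rps2, no run reaches 8 bases. These 7 are among the 12 of 62 genes with a C at the annotated start and C or T at each of the next 4 bases. In Rps15a the capitals end before the annotated start, and the pyrimidines at the start itself are in lower case.
Rpl35: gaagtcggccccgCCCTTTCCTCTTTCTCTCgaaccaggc
Rpl15: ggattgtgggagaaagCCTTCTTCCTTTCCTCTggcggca
Rpl14: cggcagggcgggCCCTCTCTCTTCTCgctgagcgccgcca
Rps10: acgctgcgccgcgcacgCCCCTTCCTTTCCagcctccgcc
Rps18: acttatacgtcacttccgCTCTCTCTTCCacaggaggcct
Rps6: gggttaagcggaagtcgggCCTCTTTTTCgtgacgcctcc
Rps15a: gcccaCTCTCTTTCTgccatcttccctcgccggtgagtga
Rplp0: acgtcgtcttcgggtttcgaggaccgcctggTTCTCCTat
Rps2: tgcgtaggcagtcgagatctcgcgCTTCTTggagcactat

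These windows lie at chr2:39005112-39005151 (minus strand) for Rpl35, chr14:18270967-18271006 (minus) for Rpl15, chr9:120571497-120571536 (plus) for Rpl14, chr17:27635225-27635264 (minus) for Rps10 and chr17:33955646-33955685 (minus) for Rps18. Those of the other genes are chr4:86857348-86857387 (minus) for Rps6, chr7:118116128-118116167 (minus) for Rps15a, chr5:115559447-115559486 (plus) for Rplp0 and chr17:24720043-24720082 (plus) for Rps2. A C at the annotated start followed by C or T at each of the next 4 bases was found in 12 of the 62 genes, or 19.4%, against 282 of 12011 RefSeq promoters, or 2.35%. A run of at least 8 pyrimidines within 25 bases of the start was found in 30 of 62 (48.4%), against 19.0% of all promoters. The large subunit had such a run in 19 of 38 genes and the small subunit in 11 of 24. The table gives 1 start per gene, and for 15 of the 62 it lies over 100 bases from the 5′ end of the gene in the deposited table. Among these 15 are Rpl35, Rpl15, Rps10, Rps18 and Rps2, whose windows are shown above. A start that is off by some bases, whether or not it lies far from that end, would miss a TOP motif.

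Other motifs, none of which contains another, were searched on both strands of the 300 bases of each promoter. The letters CCGGAAG, a core to which ETS factors are known to bind, were in 40.3% of these genes and 16.2% of all promoters, and AAGATGG, a YY1 core, in 14.5% and 6.71%. The letters GGGCGG of the SP1 box were in 59.7% and 60.6%, TATAAA in 9.68% and 8.11%, and CACGTG, the E box, in 8.06% and 9.55%. As a description, the median log2 ratio between the surgeries was 0.57 for the 30 genes with the pyrimidine run and 0.61 for the 32 without. With and without a C followed by pyrimidines at the start it was 0.68 and 0.58, and with and without CCGGAAG 0.59 and 0.58. The medians were 0.33 and 0.59 for AAGATGG, which 9 genes hold, 0.70 and 0.57 for CACGTG, which 5 hold, 0.62 and 0.54 for GGGCGG, and 0.59 and 0.58 for TATAAA.

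Most of the ribosomal protein genes had a higher mean after partial discectomy than in sham, and none of the differences passed the adjusted threshold. The ratio was above 1 in 79 of 82 genes, against 62.7% of all rows and 67.5% of protein-coding rows. Their median log2 ratio was 0.59, a ratio of 1.51, with the quartiles at 0.37 and 0.73. The median over all rows was 0.08, that over all protein-coding rows 0.12, and that over the 9538 protein-coding rows with a mean of at least 5 above the floor 0.14. A log2 ratio over 0.5 was reached by 52 of the 82 genes, or 63.4%, and by 13.5% of those 9538 rows. In bulk bone, a change in the cells present and a change in the RNA of each cell cannot be told apart.

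A gene was called at an adjusted p under 0.05. By this rule 0 of the 82 genes were called higher and 0 lower in the authors' deposited table, where 2.28% of all rows were called higher and 0.104% lower. The statistical model behind these p-values is not named in the sources used here. With no adjustment, 27 of the 82 genes were higher and 0 lower at a p under 0.05 by the authors' deposited table, against 10.9% and 3.31% of all rows. Of the 65 ribosomal protein genes with a mean of at least 5 above the floor, 25 were higher at that p, against 11.8% of the 9538 protein-coding rows at such a level. The deposited 95% limits of the ratio lay above 1 for 34 of the 82 genes, against 11.1% of all rows. For 7 of these 34 the deposited p was not under 0.05, so the limits are the more lenient of the 2 measures for these genes.

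**Figure D1:**
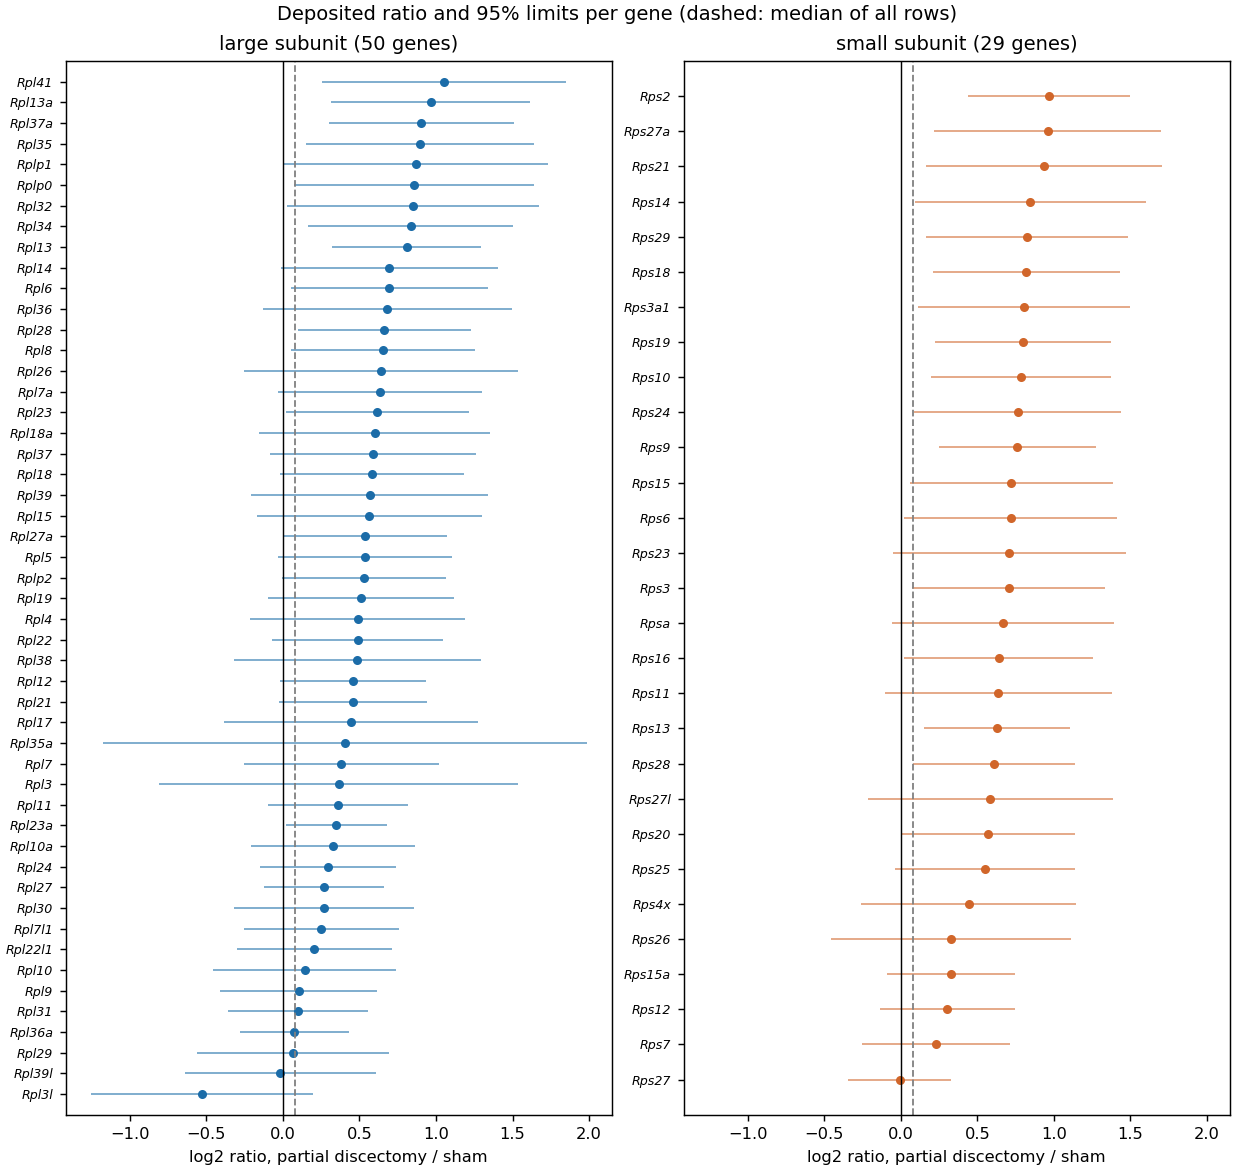
Deposited log2 ratio (horizontal axis, partial discectomy over sham) of the 50 large and 29 of the 32 small subunit genes, with the authors' 95% limits as lines. The dashed line is the median of all rows, 0.08, which all but 5 of the 82 genes exceed. Among the genes drawn, Rps2 has the lower limit farthest above 0 and Rpl35a the widest limits.

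Both subunits had higher means after partial discectomy, and the small subunit had the higher median ratio. The median log2 ratio was 0.52 in the large subunit (range −0.53 to 1.05) and 0.71 in the small subunit (range −0.01 to 0.97), a difference of −0.19, large minus small. The ratio was above 1 in 48 of 50 large and 31 of 32 small subunit genes. A log2 ratio over 0.5 was found in 26 of 50 large (52.0%) and 26 of 32 small subunit genes (81.25%). Only 9 of the 50 large subunit genes lay above the small subunit's median, while 26 of the 32 small subunit genes lay above the large subunit's median. Without adjustment, p was under 0.05 for 11 of 50 large and 16 of 32 small subunit genes by the authors' deposited table, all higher. The difference between the subunits could not be tested over samples.

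The difference was smaller without the low genes and with copies of the genes added. A mean under 5 above the floor was found for 17 genes, 14 of the large and 3 of the small subunit, whose median log2 ratio was 0.23. Among the 65 others all ratios were above 1, against 71.4% of the 9538 protein-coding rows at such a level. The medians of these 65 genes were 0.59 for 36 large and 0.71 for 29 small subunit genes, a difference of −0.12. With the near-identical copies of each gene added to it, as given further on, the medians were 0.65 and 0.72, a difference of −0.07. Summed over genes, the signal above the floor was 2188 after partial discectomy and 1393 in sham for the large subunit, and 1718 and 1070 for the small subunit. The log2 ratios of these sums were 0.65 and 0.68. Across the 82 genes the log2 ratio followed the mean level, with a Spearman correlation of 0.52, or 0.34 with the floor subtracted, over points that share their 6 libraries.

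**Figure D2:**
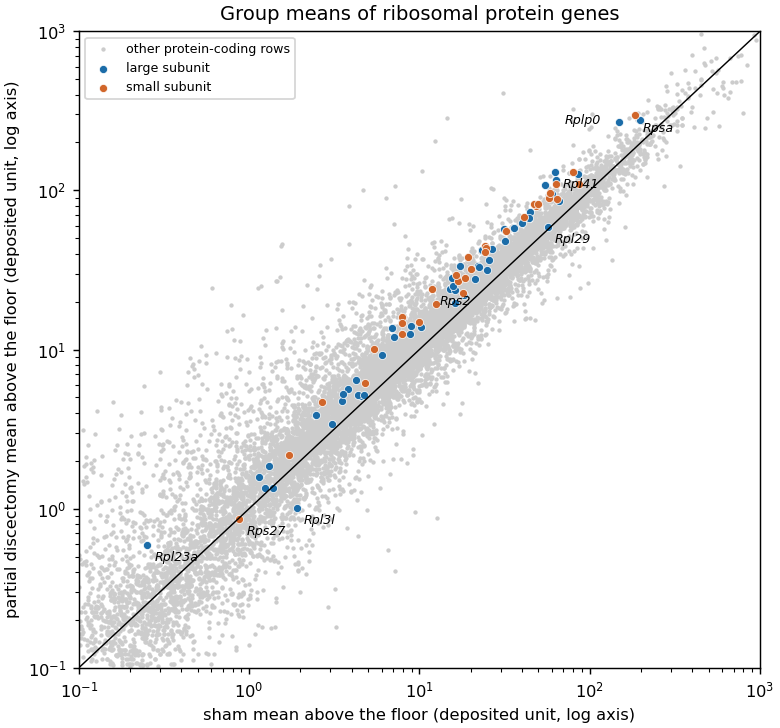
Mean above the floor in sham (horizontal) and after partial discectomy (vertical), both log axes in the deposited unit, for the large subunit (blue), the small subunit (orange) and the other protein-coding rows with both means over 0.1 (grey). The line marks equal means, and only Rpl3l, Rpl39l and Rps27 of the coloured points lie under it, all 3 among the low genes.

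The small subunit gene with the smallest p was Rps2, which encodes a protein at the entry of the messenger RNA channel and lies on chromosome 17 (24718116 to 24721930, mm10). Its mean above the floor was 24.2 after partial discectomy and 11.9 in sham, and its highest library was at 32.8 with the floor included. The authors' deposited table gives it a ratio of 1.96 (95% limits 1.36 to 2.82), with p = 0.00314 and an adjusted p of 0.0852, the smallest of the 82 genes. It remained over 0.05 when the deposited p-values were adjusted over protein-coding rows alone, at 0.0657, or over all rows with a mean of at least 5 above the floor, at 0.0843.

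Next to it stood Rps9, a neighbour of Rps2 at the messenger RNA entry, with means of 55.3 and 32.2 above the floor. The authors' deposited table gives Rps9 a ratio of 1.70 (limits 1.19 to 2.42), p = 0.00887 and an adjusted p of 0.156. Rps13 had means of 4.71 and 2.69, Rps19 of 43.2 and 24.5, and Rps18, which contacts the large subunit, of 29.6 and 16.3. Rps27a, made as a fusion with ubiquitin, had means of 38.4 and 19.3, and the zinc-binding Rps29 of 14.7 and 7.90. By the authors' deposited table the ratios of these 5 genes lay between 1.54 for Rps13 and 1.94 for Rps27a, and their p-values between 0.0141 for Rps13 and 0.0184 for Rps29. Rps10 was also among the smallest p-values of this subunit, with a ratio of 1.72 in the authors' deposited table. Partial discectomy means were thus the higher ones in each of these genes, with limits that leave out 1 and adjusted p-values of 0.199 or more from Rps13 on.

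The largest log2 ratios of the small subunit were 0.97 for Rps2, 0.96 for Rps27a, 0.93 for Rps21, 0.84 for Rps14, whose loss is tied to the anaemia of the 5q- syndrome, and 0.82 for Rps29. The smallest were −0.01 for Rps27, 0.23 for Rps7, 0.30 for Rps12, 0.33 for Rps15a and 0.33 for Rps26. Rps21 had means of 16.1 and 7.92 above the floor and Rps14 of 44.4 and 24.3. Among the 5 smallest, the means were 0.863 and 0.873 for Rps27, 2.18 and 1.71 for Rps7, 6.14 and 4.79 for Rps12, 22.7 and 17.9 for Rps15a, and 109 and 86.7 for Rps26.

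The small subunit rows with the highest deposited means included Rpsa, Rps3, Rps26 and Rps24. Rpsa, also known as the laminin receptor precursor, had means of 296 and 186 above the floor and a highest library of 406. Rps3, which sits at the messenger RNA entry, had means of 131 and 80.2, with a highest library of 173. Rps24 had means of 109 and 63.8. The ratios of Rpsa, Rps3 and Rps24 lay between 1.59 for Rpsa and 1.70 for Rps24 in the authors' deposited table, against 1.25 for Rps26, and the p-values between 0.0363 for Rps3 and 0.0825 for Rpsa.

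Of the 8 genes whose proteins line the decoding site and the messenger RNA channel (such as Rps2, Rps3, Rps14, Rps15, Rps23, Rps26 and Rps28), all 8 had a ratio above 1. Their median log2 ratio was 0.71, that of the whole small subunit. The unadjusted p was under 0.05 for 4 of them by the authors' deposited table, namely Rps2, Rps28 (1.52-fold), Rps3 and Rps14.

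Rps6, the target of the S6 kinases, had means of 82.4 and 49.7 above the floor and a ratio of 1.64 in the authors' deposited table.

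In the large subunit the smallest p belonged to Rpl13, whose human counterpart is mutated in a skeletal dysplasia. It lies on chromosome 8 (123102350 to 123105245, mm10), and its means were 28.2 and 15.6 above the floor. The authors' deposited table gives Rpl13 a ratio of 1.75 (limits 1.25 to 2.46), p = 0.00461 and an adjusted p of 0.106. Rpl13a, which also belongs to a complex that represses translation after interferon gamma, had means of 108 and 54.8. Its ratio in the authors' deposited table was 1.95 (limits 1.25 to 3.07), with p = 0.00912 and 0.158 after adjustment. Rpl37a, a zinc-binding protein, had means of 33.4 and 17.4, and by the authors' deposited table a ratio of 1.87 and an adjusted p of 0.166.

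The largest log2 ratio of all 82 genes was that of Rpl41 (chromosome 10, 128548114 to 128549306, mm10), a very short and basic peptide, at 1.05. Its means were 131 and 62.7 above the floor, and its highest library, at 192 with the floor included, exceeded the summed sham signal of all 3 libraries above the floor. The authors' deposited table gives Rpl41 a ratio of 2.08 (limits 1.20 to 3.61) and an adjusted p of 0.230. Rpl13a followed at 0.97, Rpl37a at 0.91, Rpl35 at 0.89 and Rplp1 at 0.87. The smallest log2 ratios of the large subunit were −0.53 for Rpl3l, −0.02 for Rpl39l, 0.06 for Rpl29, 0.08 for Rpl36a and 0.10 for Rpl31. Among these only Rpl29, whose loss makes mice small, had a high mean, 59.3 after partial discectomy and 56.6 in sham, with limits of 0.678 to 1.61 in the authors' deposited table.

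The large subunit rows with the highest deposited means were Rpl4, Rplp0, Rpl15, Rpl41 and Rplp1. Rpl4, which reaches into the peptide exit tunnel, had means of 278 and 198 above the floor and a ratio of 1.40 (limits 0.863 to 2.28) in the authors' deposited table. Rpl15 had means of 127 and 85.4, and a ratio of 1.48 (limits 0.891 to 2.46) in the authors' deposited table. Rpl14 had means of 73.4 and 44.9 and a ratio of 1.62 (limits 0.993 to 2.64) in the authors' deposited table. The limits of all 3 took in 1.

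The P stalk is the arm of the large subunit that recruits and activates the elongation factors, built of Rplp0, which carries dimers of Rplp1 and Rplp2, on a base with Rpl12. All 4 genes had ratios over 1, and their median log2 ratio was 0.69. Rplp0 had means of 269 and 148 above the floor, Rplp1 of 117 and 63.5, Rplp2 of 9.17 and 6.05 and Rpl12 of 5.62 and 3.82. In the authors' deposited table their ratios were 1.81, 1.83, 1.44 and 1.37, with p-values of 0.0444, 0.0578, 0.0630 and 0.0525. Rplp0, often used as a reference gene for relative expression, thus had a log2 ratio of 0.86 between these group means, while the authors' deposited table gives limits of 1.05 to 3.11 on its ratio and an adjusted p of 0.334.

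Rpl5 and Rpl11 join the 5S ribosomal RNA in a particle that, when ribosome building fails, binds Mdm2 and so stabilizes p53. Rpl5 had means of 32.9 and 22.4 above the floor and Rpl11 of 4.77 and 3.49. In the authors' deposited table their ratios were 1.45 and 1.28, both with limits that take in 1 (p = 0.0731 and 0.114). Around the rim of the peptide exit tunnel, where new protein leaves the ribosome, all 8 listed genes (Rpl17, Rpl19, Rpl22, Rpl23a, Rpl26, Rpl31, Rpl35 and Rpl39) had ratios over 1, and their median log2 ratio was 0.50. The unadjusted p in the authors' deposited table was under 0.05 for Rpl35 (1.86-fold, means of 13.6 and 6.86 above the floor) and Rpl23a (means of 0.595 and 0.251), 2 of the 8. Rpl22 (1.40-fold, p = 0.104) and Rpl19 (1.43-fold, p = 0.113) came next by the authors' deposited p.

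In people, loss of 1 copy of certain ribosomal protein genes causes Diamond-Blackfan anaemia, in which red cell precursors fail. Of 9 such genes each stood above its sham mean, the median log2 ratio being 0.54. Rps19, the first gene found for this disease, had a ratio of 1.74 (limits 1.17 to 2.59) in the authors' deposited table, with p = 0.0152. Rps10 stood at 1.72 and Rps24 at 1.70 there, with p-values of 0.0193 and 0.0383, and these 3 were the ones under 0.05. The other 6, among them Rpl5 (1.45-fold), Rpl35a (1.32), Rpl11 (1.28), Rps26 (1.25) and Rps7 (1.17), all had limits that take in 1 in the authors' deposited table. Rpl35a had the widest limits of the 82 genes, 0.442 to 3.96, around means of 13.8 and 10.2 above the floor.

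A few ribosomal proteins have a second, minor gene, which can be used in single tissues. Rpl3l, which replaces Rpl3 in skeletal and heart muscle, was the only member with a log2 ratio far under 0. Its means were 1.01 and 1.90 above the floor, and the authors' deposited table gives limits of 0.419 to 1.15. Rpl3 itself had means of 27.6 and 21.2. All 6 listed markers of skeletal muscle likewise had ratios under 1, their summed means being 139 and 203, with none called lower. Their part in the value of Rpl3l was not tested.

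Rpl39l, best known from the testis, had means of 1.36 and 1.38 above the floor, beside 47.8 and 31.9 for Rpl39. Rpl22l1 had means of 5.19 and 4.36 beside 36.5 and 25.7 for Rpl22, and Rpl7l1 of 19.5 and 16.3 beside 86.2 and 65.9 for Rpl7. Rps27l, a target of p53, had means of 19.4 and 12.6, and Rps27 of 0.863 and 0.873. In 4 of these 5 pairs the ratio of the minor gene was the lower one: in the authors' deposited table it was 0.693 against 1.29 for Rpl3l and Rpl3, 0.989 against 1.48 for Rpl39l and Rpl39, 1.15 against 1.40 for Rpl22l1 and Rpl22, and 1.19 against 1.30 for Rpl7l1 and Rpl7. For Rps27l and Rps27 it was the reverse, with log2 ratios of 0.59 and −0.01. That order turned when near-identical copies were added, as given further on, with log2 ratios above the floor of 0.58 for Rps27l and 0.89 for Rps27. Limits overlapped in every pair, and the differences were not tested. Rps4l, which the table types as a pseudogene, had a ratio of 1.02 against 1.36 for Rps4x. Rpl10, whose minor gene Rpl10l has no row here, had means of 5.14 and 4.56.

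The 4 further ribosomal proteins that the symbol rule leaves out also had ratios above 1. Fau, which encodes a ribosomal protein fused to a ubiquitin-like one, had means of 83.2 and 42.8 above the floor and a ratio of 1.92 (limits 1.21 to 3.06) in the authors' deposited table. In the authors' deposited table Rpl36al had a ratio of 1.49 and Rack1, a scaffold on the small subunit, of 1.44. The median log2 ratio of the 4 was 0.61, and 2 of them, Fau among these (p = 0.0158), had unadjusted p-values under 0.05 in the authors' deposited table, with none called.

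How far a gene's own row holds its signal differed greatly. Transcripts of pseudogene rows and of other Rpl and Rps rows were compared with those of the 82 genes, and rows that matched at 90% identity or more over at least 80% of their length were taken as copies. There were 305 such rows among 2583 compared, and 76 of the 82 genes had at least 1, with a median of 3 and a most of 21 for Rpl7a. Summed above the floor, the copies held more signal than the genes themselves, 4769 after partial discectomy and 2977 in sham, against 3906 and 2463. The gene's own row held under 50% of the summed signal of the gene and its copies for 40 genes (26 large, 14 small), and under 10% for 15. How the counting treated reads that match several places is not given in the sources used here, and the ratio of a gene whose signal lies mostly in its copies is uncertain.

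Rpl23a is the extreme case, with means of 0.595 and 0.251 above the floor in its own row, 0.286% of the signal of its family. Its copy Rpl23a-ps3 alone stood at 78.0 and 51.3, a match at 99.8% identity. Rps27 held 1.74% of its family, while Rps27rt, whose transcript matches it at 100% identity, stood at 64.0 and 34.1, so that the log2 ratio was −0.02 for Rps27 alone and 0.89 with the copy, both above the floor. Rpl10 held 2.26%, beside 239 and 181 in Rpl10-ps3, and its log2 ratio went from 0.17 to 0.39. Rpl36a went from 0.13 to 0.73, Rpl9 from 0.14 to 0.69, Rpl31 from 0.12 to 0.67, Rps12 from 0.36 to 0.89 and Rps7 from 0.35 to 0.66. Other genes went down when copies were added, Rpl23a from 1.24 to 0.61, Rps2, the gene of the smallest p, from 1.03 to 0.69 with 18 copies, Rpl21 from 0.50 to 0.27 and Rpl13 from 0.85 to 0.74. In all, 41 genes went up, 35 went down and 6 have no copy. Rpl3l and Rpl39l, which have no copy, kept −0.91 and −0.03 above the floor, and Rpl29 stood at 0.07 alone and 0.13 with its 6 copies.

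With copies added, 80 of the 82 genes had a log2 ratio above 0, and the median went from 0.64 to 0.68, both above the floor. The spread over the small subunit genes narrowed from an SD of 0.23 to 0.14 and its lowest value was then 0.38, while in the large subunit the SD went from 0.34 to 0.31. Of the 94 copies with a mean of at least 5 above the floor 92 were above their sham mean, with a median log2 ratio of 0.67. Of the 211 lower ones 128 had, with a median of 0.04. Among the 305 copies 1 was called higher and 0 lower, against 2.28% and 0.104% of all rows. The copy called higher was Gm9320, a copy of Rps24 with means of 17.5 and 4.86 above the floor. The authors' deposited table gives it an adjusted p of 0.0188 and a log2 ratio of 1.66. Of the 101 rows that carry pseudogene symbols of ribosomal proteins, 76 were above their sham mean, with a median of 0.40, and 0 were called. Since 9 copies have values identical to those of another copy, such as Rpl35a-ps2 and Rpl35a-ps3, these sums may hold the same reads more than once.

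**Figure D3:**
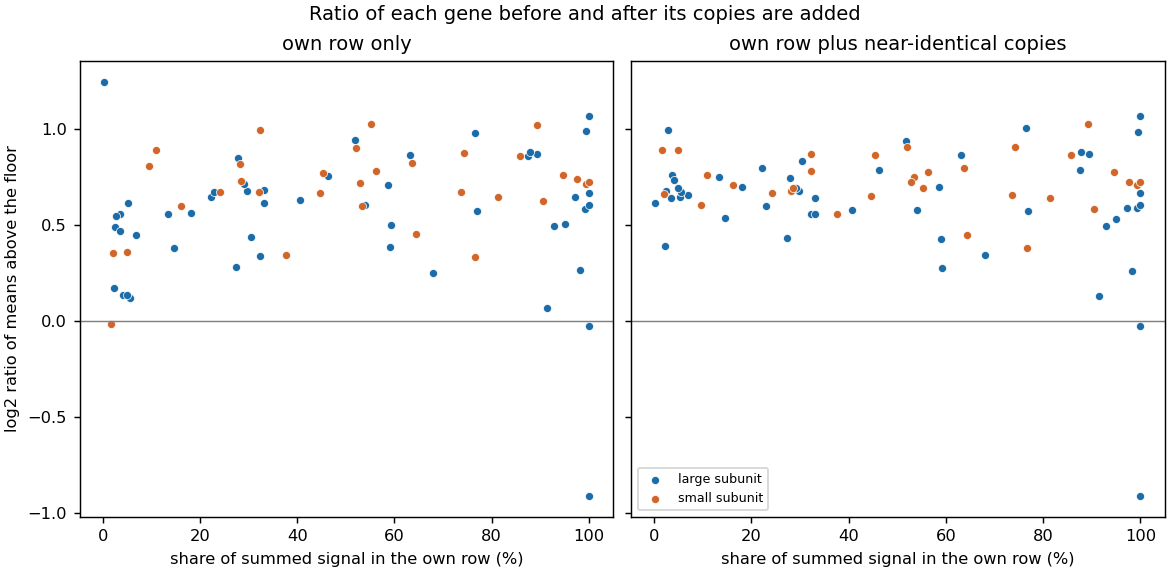
Log2 ratio of means above the floor (vertical) for each gene from its own row (left) and with its near-identical copies added (right), against the percent of that summed signal held by the gene's own row (horizontal). Large subunit genes are blue and small subunit genes orange. On the left, genes at under 10% reach down to about 0; on the right, all small subunit genes lie at 0.38 or more.

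The table allows 1 look at single libraries. For each gene it gives the highest value over the 6 libraries and their geometric mean beside the group means, and from these the group of the highest library can often be derived. The highest library had to be a partial discectomy library for 73 of the 82 genes (42 large, 31 small), against 44.6% of all rows. Among the 65 genes with a mean of at least 5 above the floor this held for 63, against 50.7% of the 9538 protein-coding rows at that level. It had to be a sham library for Rpl3l, and for 8 genes either group could hold it. A higher partial discectomy mean makes this outcome likelier by itself.

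In the 73 genes the highest library held between 34.2% and 60.9% of the partial discectomy total, floor included, with a median of 45.0%. An even split gives 33.3%, and all protein-coding rows of the same kind had a median of 39.1%. At a mean of at least 5 above the floor the medians were 45.4% for 63 of these genes and 39.2% for the protein-coding rows. With that library left out the median log2 ratio of the 73 genes went from 0.64 to 0.35, and it stayed above 0 in 71 of them. The exceptions were Rpl17, at −0.06, and Rpl35a, at −0.37, whose highest library held 60.9%. At a mean of at least 5 above the floor, the median went from 0.66 to 0.37 for the 63 genes and from 0.30 to 0.17 for the protein-coding rows of the same kind. The median drop was 0.28 for the 73 genes, which include low ones, and 0.13 for those rows, which do not. Rps2 kept 0.73 and Rpl41 0.69. The library left out is the highest of each gene and need not be the same one from gene to gene. The 2 lower partial discectomy libraries thus stood on average above the sham mean in 71 of the 73 genes, by less than all 3 did.

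**Figure D4:**
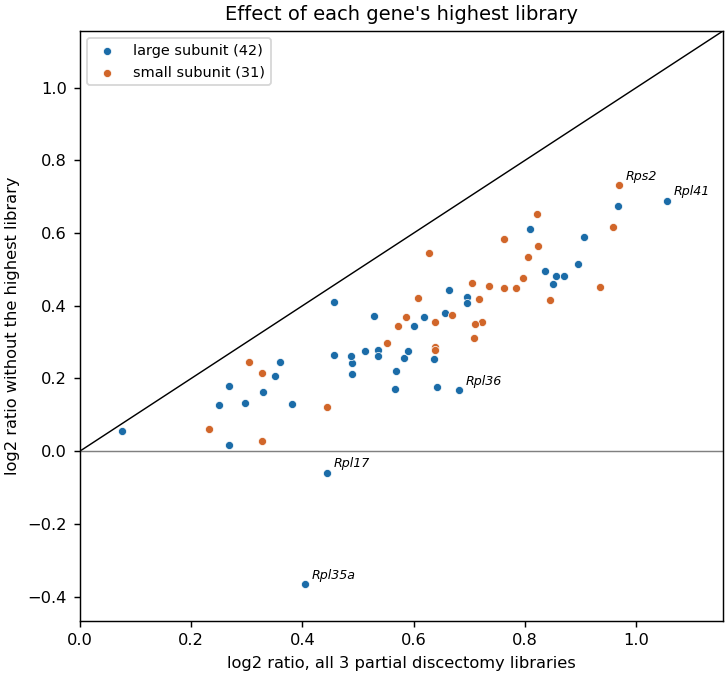
Log2 ratio with all 3 partial discectomy libraries (horizontal) and without each gene's highest one (vertical), for the 42 large (blue) and 31 small subunit genes (orange) whose highest library had to be a partial discectomy library. All points lie under the diagonal of equal values, as leaving out the highest value requires, and only Rpl17 and Rpl35a lie under 0.

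Lists of genes that work with the ribosome had smaller median log2 ratios. Of 13 translation factors and other proteins whose messenger RNAs are known to carry a TOP motif, each stood above its sham mean, the median log2 ratio being 0.40. In the authors' deposited table the smallest p-values among them were those of Eef1b2, an exchange factor of elongation (1.70-fold, p = 0.0251), Pabpc1, the poly(A)-binding protein (1.57-fold, p = 0.0330), Eef1g (1.35-fold, p = 0.0840) and Tpt1 (1.59-fold, p = 0.128). Of 26 genes of ribosome assembly, such as nucleolar proteins and RNA polymerase I subunits, 25 were above their sham mean, with a median of 0.23. The smallest p-values of this list in the authors' deposited table belonged to Fbl, the nucleolar methyltransferase fibrillarin (1.40-fold, p = 0.0340), Nop56 (1.29-fold, p = 0.0510), Nolc1 (1.31-fold, p = 0.0674) and Bop1 (1.37-fold, p = 0.0751). Of these 3 lists of translation, assembly and cytosolic ribosome genes, none had a member with an adjusted p under 0.05.

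The ribosome of mitochondria is built from its own nuclear genes. There were 78 rows of these, and 75 were above their sham mean, with a median log2 ratio of 0.28. Unadjusted p-values under 0.05 in the authors' deposited table were those of Mrpl18 (1.51-fold), Mrpl12 (1.57-fold) and Mrps34 (1.47-fold), with Mrps14 (1.36-fold) next, and 0 were called. Among 15 genes of S6 kinase and growth control the median was 0.13, close to that of protein-coding rows. Mtor, the kinase at the head of this pathway, had means of 41.2 and 36.1 above the floor, and Larp1, which holds back TOP messenger RNAs, of 88.6 and 78.0. Of the 15 genes 1 was called higher by the authors' deposited table, Rps6ka1, a kinase downstream of ERK (means of 15.3 and 3.38 above the floor, adjusted p 0.00937, 3.72-fold with limits of 2.56 to 5.39). In the authors' deposited p-values the next of this list were Eif4ebp2 (1.29-fold, p = 0.129), Rps6kb2 (1.16-fold, p = 0.244) and Mtor (1.14-fold, p = 0.329).

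**Figure D5:**
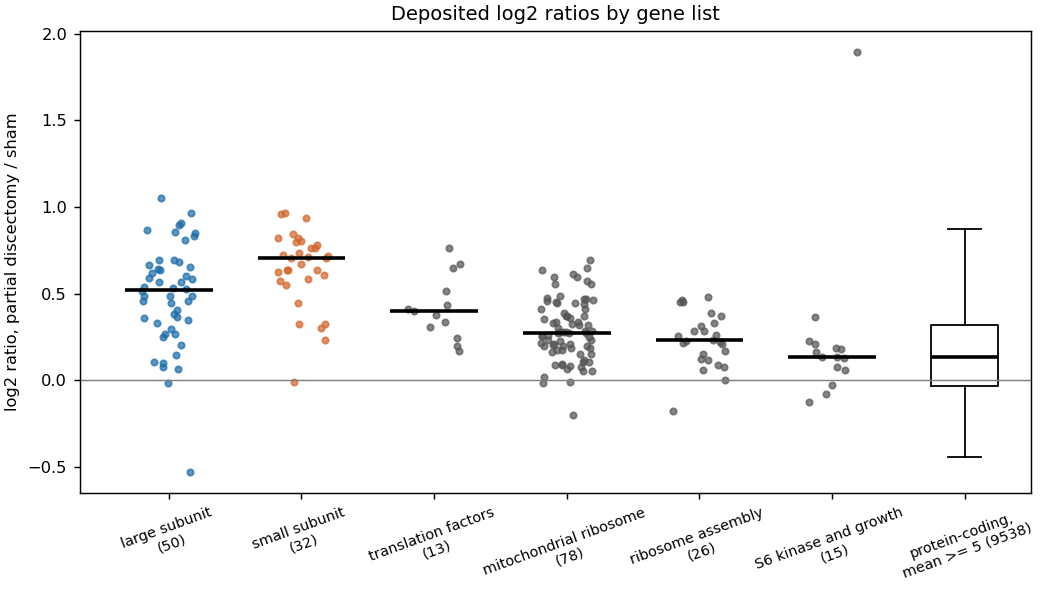
Deposited log2 ratio (vertical, partial discectomy over sham) of each gene of 6 lists, with thick bars at the medians, and a box plot of the 9538 protein-coding rows with a mean of at least 5 above the floor (box: quartiles, whiskers: 5th and 95th percentiles). The small subunit has the highest median, 0.71, the large subunit follows at 0.52 and the translation factors at 0.40.

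The 82 genes held 0.741% of all signal above the floor after partial discectomy and 0.512% in sham, or 1.64% and 1.13% with their copies. Markers of neutrophils and of the red cell lineage differed far more between the groups than these genes did. All 6 neutrophil markers and all 6 erythroid markers were called higher at the adjusted threshold in the authors' deposited table, with summed means above the floor of 1109 and 71.5 for neutrophils and of 227 and 11.5 for the erythroid list. Of the B cell markers 1 of 6 was called higher, with a median log2 ratio of 1.34. Their sums were 110 and 66.8, of which Ebf1 alone held 70.2 and 56.1. Of the T and NK cell markers 2 of 5 were called higher (sums 8.10 and 0.934, median log2 ratio 0.97). Of 8 bone markers 0 were called (57910 and 45627, median log2 ratio 0.34), nor were any of 5 macrophage markers (202 and 133, median 0.09). Most of the bone sums came from Col1a1 (34179 and 27782) and Col1a2 (20059 and 15383). In the macrophage sums Csf1r alone held 157 and 86.5. No marker of these lists was at the floor in either group. The part of these cell types in the values of the ribosomal protein genes was not tested.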

How the data were processed

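RNA of 6 libraries, 3 sham and 3 partial discectomy, was measured. STAR 2.6.1d and mm10 are named by the submitters' processing notes. The counter, the normalization and the model of the tests were not given in the sources used here. The authors' deposited table holds a normalized signal per group, its ratio and log2 ratio, a p-value, an adjusted p that equals Benjamini-Hochberg over all 23170 rows, and a signed fold change with 95% limits, which were entered as a score and turned into ratios here. The second deposited file held no measurement and was not used. The table has no values by library, so the planned count test could not be run, and depth is unknown; no interval that needs it is given.

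Medians, counts and sums were computed with Python 3.11.15 and pandas 2.3.3, and copies were found with blastn 2.17.0 on GENCODE M21 transcripts, whose positions equal the deposited ones for all 82 genes within 1 base. Members and lists were chosen with earlier results of these data known. Named were the 12 smallest p-values, the 5 largest and smallest log2 ratios and 5 highest means per subunit, all members of the paralog, P stalk, 5S and anaemia lists, and 4 per other list, except that a few genes so chosen are not reported here, though counts and medians include them; other genes were named after their values were seen. The derivation of highest libraries was tested on simulated data, while that of copies was not.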

Additional observations from a re-analysis of the deposited data

How the results depend on the processing

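No count, median, difference of medians or share over the genes reversed its direction. Of single genes, Rps27 went from −0.02 to 0.89 with copies, which also turned its order with Rps27l, and Rpl17 and Rpl35a went to −0.06 and −0.37 without their highest library. There was 1 member higher at an adjusted p under 0.1 in the authors' deposited table, and 27 at an unadjusted p under 0.05. The limits lay above equal means for 34 members and above the median ratio of all genes for 20. At an adjusted p under 0.05 there were 0. Of all rows, 10.9% were higher at that unadjusted p and 11.1% had limits above equal means, by the authors' deposited table. No share of all rows is given for the counts of 1 and 20, so these cannot be compared with other genes. The median log2 ratio of 0.59 became 0.51 relative to the median of all genes and 0.46 relative to the summed group means. It became 0.68 with copies summed, and 0.30 when each gene's highest value was taken out of its partial discectomy total. This was done for all 82 genes, though the value had to be a sham one for Rpl3l and could be for 8 others. In the 73 genes where it had to be a partial discectomy one, the median went from 0.64 to 0.35. For the large subunit, 0.52 became 0.58 with the floor subtracted, 0.44 relative to all genes and 0.65 with copies. It became 0.59 at a mean of at least 5 above the floor. With the highest value so taken out of all 50 genes it became 0.25. In the 42 of them where that had to be a partial discectomy value, the median went from 0.57 to 0.26. For the small subunit, 0.71 became 0.63 relative to all genes and 0.40 with the highest value so taken out of all 32 genes. In the 31 of them where that had to be a partial discectomy value, the median went from 0.71 to 0.42. The difference of −0.19, large minus small, became −0.071 with copies and −0.12 at a mean of at least 5, and stayed between −0.14 and −0.17 in the other settings tried. The share of signal was 0.825% over protein-coding rows, 0.826% without Col1a1 and Col1a2 and 1.64% with copies after partial discectomy, and 0.565% over protein-coding rows and 1.13% with copies in sham. The highest library was tied to a group for 3 genes by the highest value alone and for 74 with the geometric mean. The cause of these shifts was not tested. The copies, the highest library, the geometric mean and the filter on low means for medians were chosen after seeing the data. Leaving out named replicates was not possible without values by library. No paired analysis was possible because the table gives group means and no values by library. That only group means of 3 libraries were analysed, with unknown depth and no named model, limits every value.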
